A study of Mus musculus with 42 samples.

Results

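Keratin genes and keratin-associated protein genes were followed through LMNB1 ChIP-seq maps of lamina-associated domains (LADs) in mouse liver. They were taken as the autosomal protein-coding genes of the GENCODE vM21 annotation whose symbol starts with Krt, which gave 113 of 20807 genes. By name, 53 were keratin genes, 57 were keratin-associated protein (Krtap) genes, and 3 (Krtcap2, Krtcap3 and Krtdap) share the letters but are not keratins. Of the 113, 100 lay in 3 clusters, here the runs of members with start sites at most 1 Mb apart. The chromosome 11 cluster held 50 members (27 keratins and 23 Krtap genes, Krt222 to Krt42, chr11:99232761-100269871). The chromosome 15 cluster held 26 keratins (Krt80 to Krt18, chr15:101347444-102032027). The chromosome 16 cluster held 24 Krtap genes (Krtap24-1 to Krtap11-1, chr16:88610705-89571183), and the 13 other members lay on chromosomes 1, 3, 5, 7 and 10. Coordinates are on mm10.

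Keratins are the intermediate filament proteins of epithelial cells and pair as an acidic type I partner with a basic type II partner. In the mouse the type I genes are grouped on chromosome 11, with Krt18 as the exception, and the type II genes on chromosome 15. Hepatocytes use the Krt8 and Krt18 pair, bile duct cells add Krt7 and Krt19, and the epidermis uses Krt5 with Krt14 and Krt1 with Krt10. Krtap genes encode the matrix proteins that embed keratin filaments in the hair shaft and are used in hair follicles. LADs are megabase stretches of chromatin at the nuclear periphery, mostly poor in genes and transcription.

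All livers came from wild-type C57Bl/6 mice. Non-synchronized mice (NS) were taken at noon on the day before food was withdrawn, and the others were fasted for 24 h, refed without restriction from circadian time 0 (CT0) and taken at CT0, CT6, CT12, CT18, CT24 or CT30, with 2 mice in each of these 7 groups. Every group thus shared strain and genotype, and the 6 CT groups shared the fast. The labels give no age and write "wild type" where the tissue should stand. They call the mice female in the gender and source fields and male in the growth protocol. The paper names liver and male mice. Each time point had 1 input library for both of its mice.

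The files give LAD positions from EDD, a caller of broad domains, for each of 14 libraries, with no score or read count, so the depth behind a call is unknown. The libraries held 86 to 341 LADs over 335.3 to 663 Mb. Their LAD starts lie on a grid whose step, called the bin size here, ran from 4 to 61 kb. A gene was in a LAD of a library when its start site lay inside an interval. A call in whole liver does not tell the share of cells in contact from the strength of contact. No expression was analysed here, so markers could not check the tissue. None of 8 hepatocyte markers, which include Krt8 and Krt18, and none of 4 bile duct markers, which include Krt7 and Krt19, lay in a LAD of any library, beside 17.1% of all autosomal protein-coding genes in 1 or more libraries.

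Start sites decided the LAD state, so the 150 bases next to the start are shown for 3 chromosome 16 genes that were in LADs in different numbers of libraries, and for 4 keratin or Krtap genes that never were. Bases are from RefSeq on GRCm38.p6, 5′ to 3′ on the strand of the gene. Each stretch ends at the base before the RefSeq start, or, for Krt18 and Krtap19-5, before the more upstream GENCODE start. Capitals mark the TATA box letters TATAAA.
Krtap6-1: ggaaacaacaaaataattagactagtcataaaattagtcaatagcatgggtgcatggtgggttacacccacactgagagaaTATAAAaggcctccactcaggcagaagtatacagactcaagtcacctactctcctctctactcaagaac
Krtap19-5: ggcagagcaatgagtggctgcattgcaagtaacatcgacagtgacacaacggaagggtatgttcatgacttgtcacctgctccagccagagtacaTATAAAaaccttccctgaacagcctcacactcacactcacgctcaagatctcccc
Krtap11-1: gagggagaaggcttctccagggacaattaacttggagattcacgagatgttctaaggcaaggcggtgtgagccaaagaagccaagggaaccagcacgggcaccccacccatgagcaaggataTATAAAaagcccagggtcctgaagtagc
Krt10: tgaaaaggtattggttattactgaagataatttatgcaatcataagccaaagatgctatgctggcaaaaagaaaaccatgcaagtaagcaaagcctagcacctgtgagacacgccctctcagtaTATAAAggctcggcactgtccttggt
Krtap3-1: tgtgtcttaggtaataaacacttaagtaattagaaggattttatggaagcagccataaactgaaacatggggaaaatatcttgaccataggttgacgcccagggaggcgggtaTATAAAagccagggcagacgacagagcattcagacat
Krt5: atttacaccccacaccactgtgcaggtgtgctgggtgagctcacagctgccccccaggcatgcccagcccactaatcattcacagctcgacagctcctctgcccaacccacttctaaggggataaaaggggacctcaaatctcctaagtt
Krt18: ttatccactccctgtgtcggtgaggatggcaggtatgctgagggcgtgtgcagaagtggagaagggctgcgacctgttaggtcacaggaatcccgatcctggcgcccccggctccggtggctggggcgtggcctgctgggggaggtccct
Krtap6-1 (gene ENSMUSG00000058172.1 at chr16:89031699-89032292; stretch shown chr16:89031549-89031698, plus strand) was in a LAD in 7 libraries, Krtap19-5 (chr16:88896458-88896607, minus strand) in 6 and Krtap11-1 (chr16:89571184-89571333, minus strand) in 1. Krt10 (chr11:99389365-99389514), Krtap3-1 (chr11:99566631-99566780) and Krt5 (chr15:101712906-101713055) are on the minus strand and Krt18 (chr15:102028030-102028179) on the plus strand, and all 4 were in a LAD in 0 libraries. Krtap3-1 was chosen for this display after the values were seen.

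The TATAAA letters stood 69, 63 and 28 bases before the RefSeq start in Krtap6-1, Krtap19-5 and Krtap11-1, and 26 and 37 bases before it in Krt10 and Krtap3-1. The Krt5 and Krt18 stretches shown hold none. RefSeq promoters of 300 bases (250 before and 50 after the start) were matched for 90 of the 113 members. On either strand, TATAAA was found in 62 of these 90 (68.9%) and in 4473 of all 32851 RefSeq promoters (13.6%). Matches counted anywhere in the 300 bases, so a match need not be a working TATA box. By cluster the letters were in 33 of 41 promoters on chromosome 11, 6 of 16 on chromosome 15 and 16 of 23 on chromosome 16. The difference between clusters in this share was not tested. Median promoter GC was 40.7% on chromosome 16, 42.7% on chromosome 11 and 53.3% on chromosome 15, against 52.7% over all promoters. Over all matched members it was 44.7%, and the part of GC in the TATAAA share was not tested.

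LAD calls on these genes were confined, in the 14 libraries, to the chromosome 16 Krtap cluster. All 24 of its members had their start site in a LAD in 1 or more libraries, and none of the 50 on chromosome 11, the 26 on chromosome 15 or the 13 elsewhere did in any library. Put by gene name, 0 of 53 keratin genes and 24 of 57 Krtap genes (42.1%) were ever in a LAD, and 0 of the 33 Krtap genes outside chromosome 16. Over all members this is 24 of 113 (21.2%), beside 17.1% of all autosomal protein-coding genes. In 7 or more libraries it is 7 of 113 (6.19%), beside 8.2%, and in all 14 libraries 0, beside 0.875%. For the chromosome 16 cluster alone these shares were 100%, 29.2% and 0%, so it was above the background in the first and second and not in the third.

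The 2 NS libraries had 0 (replicate 1) and 12 (replicate 2) of the 24 chromosome 16 members in LADs. CT0 had 0 and 11, CT6 had 0 and 14, and CT12 had 8 and 12. CT18 had 0 and 8, CT24 had 0 and 0, and CT30 had 24 and 0. So 7 of the 14 libraries carried the call, and only at CT12 did both mice of a time point carry it, and only at CT24 did neither. The mean over the 14 libraries was 26.5% ± 31.5 (SD, n = 14) of the cluster, against 8.07% ± 1.98 of other autosomal protein-coding genes, whose share ran from 4.20% to 10.8%.

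**Figure D1:**
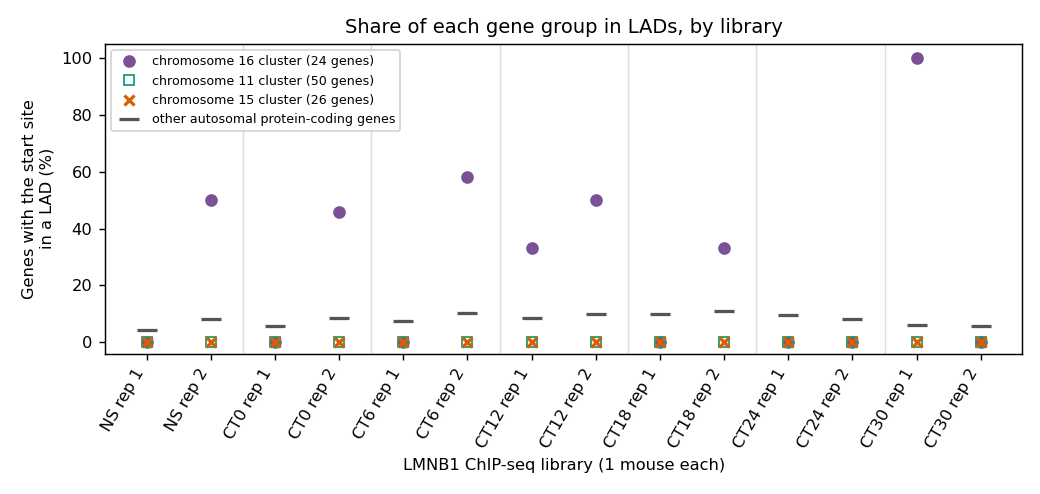
Percent of genes with the start site in a LAD (y axis) in each of the 14 LMNB1 ChIP-seq libraries (x axis, 2 mice per time point), 1 symbol per gene group. The chromosome 16 cluster sits at 33.3% to 100% in 7 libraries and at 0% in the other 7, while the chromosome 11 and 15 clusters are at 0% throughout.

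Within libraries, the chromosome 16 share exceeded that of chromosome 11 and that of chromosome 15 by 26.5 percentage points ± 31.5 (SD, n = 14), higher in 7 libraries and equal in the other 7. Chromosomes 11 and 15 were both at 0 in every library, so no difference could be negative, and a test against them would only restate that 7 libraries carried the call. For the same reason no p is given for these clusters against other genes, from which they differed by the share of other genes itself, 8.07 percentage points on average.

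The chromosome 16 cluster was above other genes by 18.4 percentage points, higher in 7 libraries and lower in 7 (exact sign-flip permutation test, p = 0.0375, adjusted p = 0.04997). The cluster is a single place in the genome, and the 7 higher libraries were those with the call. The p therefore measures how often and how widely that place was called, not a difference between sampled genes. Leaving out any 1 of the 7 libraries with a call took the adjusted p above the threshold of 0.05, and without CT30 replicate 1 the difference was 12.6 percentage points. The paper mostly took the LADs of a time point as the intersect of its replicates. In the 7 intersects the difference was -0.881 percentage points, and in the 7 unions 37.7. All 113 members together stood at -2.45 percentage points relative to other genes, lower in 9 of 14 libraries (exact permutation test, adjusted p = 0.187). Without CT30 replicate 1 this difference was -3.79 points (exact permutation test, adjusted p = 0.0156), the 1 run of 14 with a library left out that passed the threshold. Of the 113 members, 89 were in a LAD of no library. The difference is thus largely the share of other genes with its sign turned, and that p shows no depletion of its own.

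The calls on chromosome 16 had a common centre and variable ends. The LAD was 504 kb long in NS replicate 2 (chr16:88864001-89368000), 584 kb in CT0 replicate 2 (chr16:88880001-89464000) and 583 kb in CT6 replicate 2 (chr16:88858001-89441000). In CT12 replicate 1 it was 500 kb (chr16:88890001-89390000), in CT12 replicate 2 670 kb (chr16:88890001-89560000) and in CT18 replicate 2 504 kb (chr16:88908001-89412000). CT30 replicate 1 stood apart with 2294 kb (chr16:87792001-90086000), which took in the whole cluster. The stretch shared by all 7 calls was 460 kb (chr16:88908001-89368000) with a GC content of 38.2%. It held 7 members, Krtap19-9b, Krtap16-3, Krtap22-2, Krtap6-1, Krtap6-5, Krtap6-3 and Krtap20-2, each in a LAD in 7 libraries.

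**Figure D2:**
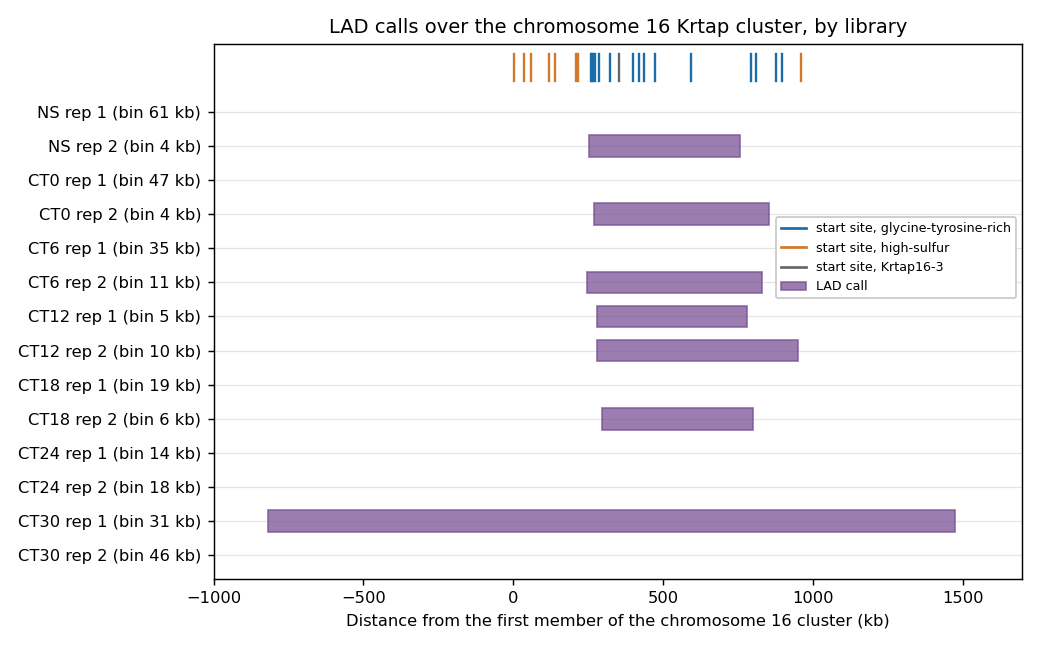
LAD calls (purple bars) over the chromosome 16 cluster, 1 row per library with its bin size, against the distance in kb from the first member. Ticks above the rows are the start sites of the 24 members, coloured by protein class, and 6 of the 7 calls are 500 to 670 kb long while that of CT30 replicate 1 is 2294 kb long.

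Around this centre the members fell off on both sides. Krtap19-5 was in LADs of 6 libraries, Krtap21-1 of 5, Krtap19-4 and Krtap6-2 of 4, and Krtap19-1, Krtap19-2 and Krtap19-3 of 3. Krtap8-1 and Krtap7-1 were in LADs of 2 libraries. The 8 members at the edges (Krtap24-1, Krtap26-1, Krtap27-1, Krtap13-1, Krtap13, Krtap15, Krtap14 and Krtap11-1) were in a LAD of CT30 replicate 1 alone, so without that library 16 of the 24 members would have any call.

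**Figure D3:**
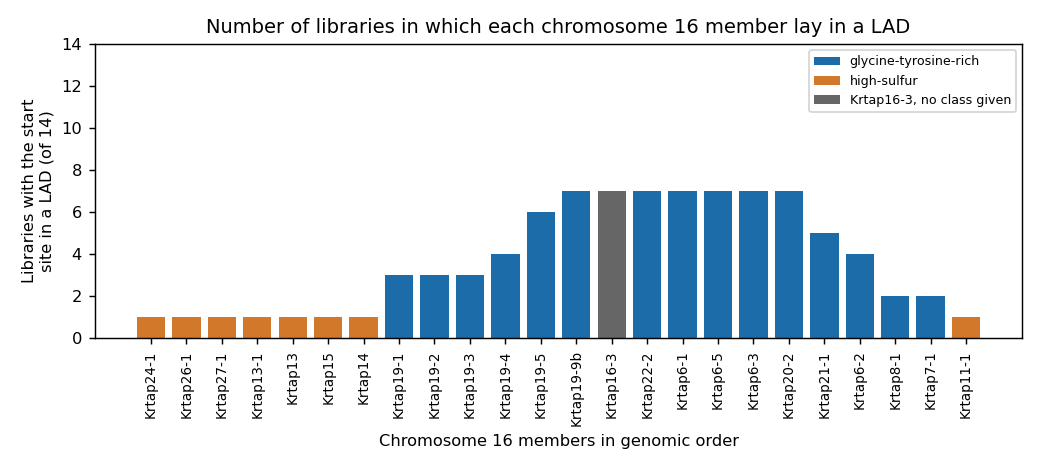
Number of libraries, of 14, with the start site of each chromosome 16 member in a LAD (y axis), members in genomic order (x axis) and bars coloured by protein class. The count reaches 7 for 7 neighbouring members and is 1 for the first 7 members and the last.

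This order runs along the protein classes of hair, which lie next to each other in the cluster. The glycine-tyrosine-rich Krtap families 6, 7, 8, 19, 20, 21 and 22 made up 15 members, in LADs of 2 to 7 libraries with a median of 5. The high-sulfur families 11, 13, 14, 15, 24, 26 and 27 made up 8 members, each in a LAD of 1 library. Krtap16-3, which was put in neither class, was in LADs of 7. The classes come from gene names and textbook knowledge and were set beside the values after these were seen. Class and position cannot be told apart here, since 7 of the 8 high-sulfur genes form the first stretch of the cluster and Krtap11-1 its end.

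At the borders, the LAD of CT0 replicate 2 divided the Krtap19 genes: Krtap19-4 was 5.09 kb inside and Krtap19-3 1.96 kb outside. Both CT12 libraries began between Krtap19-5 (6.46 kb inside) and Krtap19-4 (4.91 kb outside). In CT18 replicate 2 the border lay between Krtap19-9b (24.3 kb inside) and Krtap19-5 (11.5 kb outside), and at the other end between Krtap21-1 (8.13 kb inside) and Krtap6-2 (8.11 kb outside). In NS replicate 2 and CT6 replicate 2 the first member inside was Krtap19-1, at 5.41 and 11.4 kb from the border, and Krtap14 was the nearest outside, at 37.9 and 31.9 kb. The last member inside was Krtap20-2 in NS replicate 2 (162 kb inside) and Krtap6-2 in CT6 replicate 2 (20.9 kb inside). The gaps of 1.96 to 11.5 kb are of the order of the bin sizes of 4 to 11 kb in these libraries, and those of 20.9 kb or more are larger. Where the gap is that short, the state of a single Krtap19 gene next to a border is near the resolution of the calls.

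The call went with the bin size of the library. All 6 libraries with a bin size of 4 to 11 kb had 8 to 14 chromosome 16 members in a LAD, and 1 of 8 libraries with a bin size of 14 to 61 kb had any (CT30 replicate 1, 31 kb). The same 6 libraries held 41 to 106 LADs of at most 700 kb, and the 8 others 1 to 10. LAD coverage overlapped more: 405.4 to 663 Mb in the 7 libraries with a call and 335.3 to 631.4 Mb in the 7 without. Calls were also commoner among replicate 2 libraries (5 of 7) than replicate 1 libraries (2 of 7). The part of bin size in the chromosome 16 calls was not tested.

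**Figure D4:**
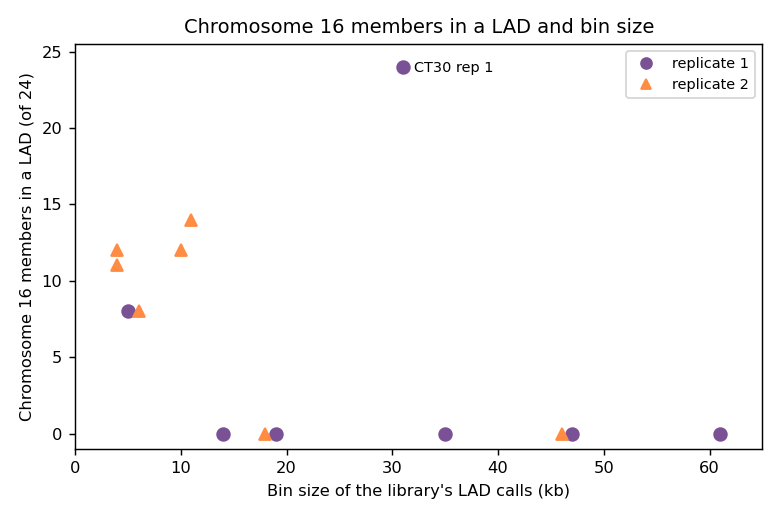
Chromosome 16 members in a LAD, of 24 (y axis), against the bin size in kb of the library's LAD calls (x axis), 1 point per library, circles for replicate 1 and triangles for replicate 2. Points at 4 to 11 kb lie at 8 to 14 members, and points at 14 to 61 kb lie at 0 except CT30 replicate 1 at 24.

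As a description, in the 6 libraries with a bin size of at most 12 kb the chromosome 16 share was on average 45.1 percentage points above chromosomes 11 and 15 and 35.8 points above other genes. Among the 8 libraries with larger bins the differences were 12.5 and 5.40 percentage points and rested on CT30 replicate 1. This division was made after it was seen which libraries carried the call, so it is given without a test. Because the libraries fell into those with and without a call, no correlation with coverage over all 14 is given. Within the 7 with a call, the number of members in LADs fell with coverage (Pearson r = -0.85, exact permutation p = 0.0357, and Spearman rho = -0.44, exact permutation p = 0.34), and without the 2 libraries farthest from the median coverage r was 0.34. Without CT30 replicate 1 r was -0.37 (exact permutation p = 0.494), so the relation rests on that library.

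LAD cover was higher over the chromosome 16 cluster than beside it. In the 7 libraries with a call, LADs covered 52.1% to 100% of the cluster, and over all 14 libraries 32% ± 35.2 (SD), against 3.48% ± 9.52 of the 2 Mb on each side. The difference of 28.5 percentage points was above 0 in 7 libraries and 0 in 7 (exact sign-flip permutation test, p = 0.0156, the smallest possible). With most flanks free of LADs, that p mainly restates that 7 libraries carried the call. Of the flanks, 15.4% was covered in CT0 replicate 2 and 33.3% in CT30 replicate 1, and 0% in the other 12 libraries. All 14 non-Krt protein-coding genes between the first and last member, largely unnamed gene models, were also in a LAD in 1 to 7 libraries. Members were taken by symbol, so these models could include keratin-associated protein genes with provisional symbols. Of the 5 genes before the cluster, Grik1, a kainate receptor subunit gene, and Cldn17 were in LADs of 2 libraries and Cldn8 of 1 (both Cldn genes encode claudins of tight junctions). None of the 5 genes after it was, among them Tiam1, which encodes a Rac exchange factor, and Sod1, the gene of cytosolic superoxide dismutase.

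Base composition of the 3 clusters differed along with their LAD state. GC content was 38.8% over the chromosome 16 cluster, 44.1% over the chromosome 11 cluster and 48.3% over the chromosome 15 cluster, and the median 1 Mb window of the autosomes had 41.7%. The clusters are all dense in genes, at 39.6, 65.6 and 42.4 protein-coding genes per Mb on chromosomes 16, 11 and 15, against 8.45 over the autosomes. With 3 clusters, GC content and LAD state cannot be told apart from anything else that differs between them.

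The chromosome 11 cluster kept a near fixed distance from LADs. Its median start site was 5.84 to 6.67 Mb from the nearest LAD, which in each of the 14 libraries was the domain ending between chr11:93114000-93940000. Krt222, a keratin-like gene at the near end of the cluster, was 5.30 Mb away at the closest, 5.75 Mb at the median and 6.13 Mb at the farthest, followed by Krt24 (5.35 to 6.17 Mb) and Krt25 (5.38 to 6.21 Mb). Krt10, the suprabasal epidermal keratin, lay at 5.45 to 6.28 Mb. Krt19, of bile ducts, was at 6.21 to 7.03 Mb, Krt14, of basal epidermis, at 6.27 to 7.09 Mb, and Krt42 at the far end at 6.33 to 7.16 Mb. These gene-to-gene steps are the map order of the cluster, since all members share 1 nearest LAD.

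The chromosome 15 cluster was farther from LADs, and its distance varied more between libraries. In 9 libraries its median start site was 28.7 to 30.4 Mb from the nearest LAD, and in 5 (both CT0 libraries, CT6 replicate 2, CT18 replicate 2 and CT30 replicate 1) it was 5.94 to 13.1 Mb away. The nearest LADs of those 5 libraries were 372 to 4340 kb long and ended at different places, from chr15:88642000 to chr15:95759000. Krt8 and Krt18, the hepatocyte pair, lay side by side at the far end (chr15:101996698-102004482 and chr15:102028180-102032027), with Krt8 at 6.25, 29.9 and 30.7 Mb and Krt18 at 6.27, 29.9 and 30.7 Mb (lowest, median and highest of 14 libraries). Krt80 (5.61 to 30 Mb), Krt7 (5.65 to 30.1 Mb), Krt86 (5.71 to 30.1 Mb), Krt5 (5.95 to 30.4 Mb) and Krt1 (6.09 to 30.5 Mb) spanned a like range.

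Between clusters, the median distance was larger on chromosome 11 (6.22 Mb ± 0.287, SD, n = 14) than on chromosome 16 (2183 kb ± 2255) in 14 of 14 libraries, by 4.03 Mb ± 2.37. On chromosome 15 it was 22.3 Mb ± 10.6, larger than on chromosome 16 in 14 of 14 libraries, by 20.1 Mb ± 9.73 (exact two-sided sign-flip permutation tests, p = 1.2e-04, the smallest possible, adjusted p = 1.8e-04 for both). Chromosome 15 was also farther than chromosome 11, in 13 of 14 libraries, by 16.1 Mb ± 10.7 (same exact test, adjusted p = 3.7e-04). Each cluster is a single place in the genome, and its nearest LAD often recurred between libraries. These p values therefore measure how steadily the calls recurred over libraries, not a difference between sampled clusters. In the 7 libraries without a call on chromosome 16, that cluster still lay nearer, its median start site 4.28 to 4.52 Mb from a LAD that ended between chr16:84398000-84630000. With a call the median was 0 to 31.8 kb, and no chromosome 16 member was more than 296 kb from a LAD.

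**Figure D5:**
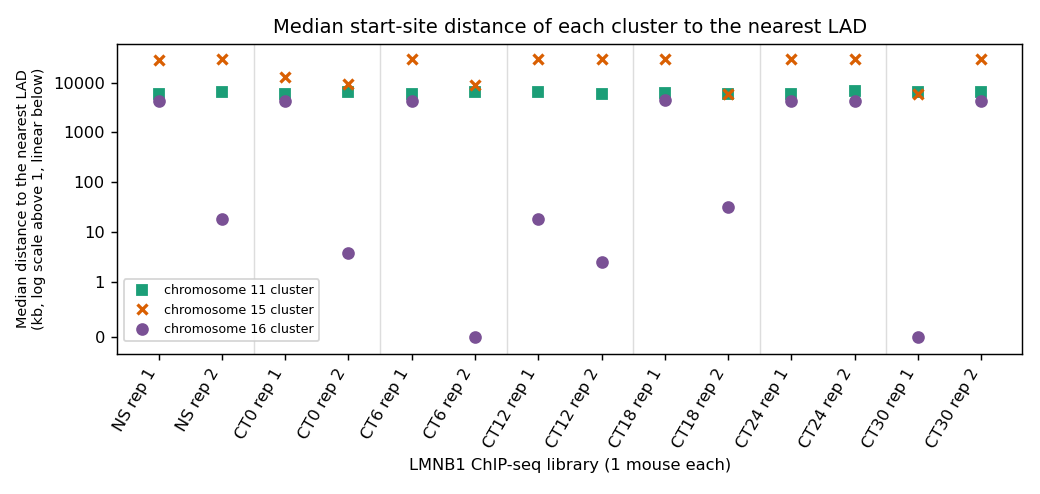
Median distance in kb from the start sites of each cluster to the nearest LAD (y axis, logarithmic above 1 kb and linear below) in the 14 libraries (x axis). Chromosome 16 drops to between 0 and 31.8 kb in 7 libraries, chromosome 11 stays between 5843 and 6669 kb, and chromosome 15 lies between 5945 and 30358 kb.

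Outside the clusters, distances varied more. Krtdap, a secreted keratinocyte protein gene on chromosome 7, came closest to a LAD of all members that were never inside one, at 0.383 Mb, with a median of 0.629 Mb and a maximum of 18.5 Mb. The 5 Krtap5 genes of chromosome 7 (Krtap5-2 to Krtap5-4) were the farthest, at 33.3 to 47 Mb. Krtap28-10 and Krtap28-13 on chromosome 1 lay 1.51 to 25 Mb away, and the 3 members on chromosome 10 (Krtap12-1 to Krtap10-10) 2.85 to 11.2 Mb. Krtcap2, a subunit gene of the oligosaccharyltransferase, was at 1.43 to 34.9 Mb with a median of 1.92 Mb, and Krtcap3 at 3.50 to 18.1 Mb.

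Over the time course, no difference between the 6 CTs in the number of members in LADs passed the test. All calls being on chromosome 16, its mean number was 5.5 ± 7.78 (SD, n = 2) at CT0, 7 ± 9.90 at CT6 and 10 ± 2.83 at CT12. For CT18 it was 4 ± 5.66, for CT24 0 ± 0 and for CT30 12 ± 17. The F ratio was 0.455 (p = 0.827 by an exact permutation test that takes every way of pairing the 12 libraries). Without CT30 replicate 2 it was 2.15 (exact permutation p = 0.225), the highest of the F ratios with 1 library left out, which began at 0.287. CT0 was 0.5 below NS (6 ± 8.49), and 2 mice against 2 gave p = 1 in the exact two-sided permutation test, which cannot go below 0.333.

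For median distance the F ratios were 0.221 on chromosome 11, 0.814 on chromosome 15 and 0.603 on chromosome 16 (exact permutation tests, p = 0.92, 0.729 and 0.603, adjusted p = 0.943 for each). Leaving out 1 library, the chromosome 15 ratio ran from 0.504 to 1.48, the highest without CT30 replicate 2 (exact permutation p = 0.317). On chromosome 15 the NS mice were at 28687 and 30184 kb and the CT0 mice at 13062 and 9344 kb, without overlap. The nearest LADs of the 2 CT0 mice were different ones (chr15:86292001-88642000 and chr15:91988001-92360000), and NS against CT0 was not tested for distance. CT12 was at 30049 and 30064 kb and CT24 at 29296 and 30082 kb. At CT6, CT18 and CT30 1 mouse was near and 1 far.

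Gene by gene, the LAD state over CT0 to CT30 was tested for the 3086 autosomal protein-coding genes whose state varied, 24 of them members. No gene passed an adjusted p of 0.05 (percent called 0), and 34 genes (1.1%) had an unadjusted p below 0.05 by the exact permutation test of the F ratio. None of the 24 members did, with unadjusted p from 0.758 to 1. For many members a low p was not possible, as for the 8 members in a LAD of CT30 replicate 1 alone. The 7 members of the shared stretch had the same states in every library and so 1 p (exact permutation p = 0.931). The members are therefore not separate results. With 6 pairs of mice p cannot go below 0.0216, and 1336 genes would have had to reach that floor for any to pass, so the count of 0 was settled by the design. As a description, 8 members (Krtap19-5, Krtap19-9b, Krtap16-3, Krtap22-2, Krtap6-1, Krtap6-5, Krtap6-3 and Krtap20-2) were in LADs of both CT12 mice and of neither CT24 mouse, a pattern that 0.548% of all genes had. Bin size differed along with these time points, at 5 and 10 kb for CT12 and 14 and 18 kb for CT24. Its part in the pattern was not tested. Krtap19-5 was in both CT12 mice and neither CT18 mouse, as were 0.178% of all genes.

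Genes that work with keratins are set beside the 17.1% of all autosomal protein-coding genes that were in a LAD in 1 or more libraries, so that being outside LADs is the usual state. None of 20 partners and regulators, such as the desmosomal genes Dsp and Jup, the cytolinker Plec and the hair factors Hoxc13 and Foxn1, was in a LAD in any library. Of 16 other intermediate filament genes, which include Vim, Des, Lmna and Lmnb1, Bfsp1 alone, a lens filament gene, was in a LAD, in CT0 replicate 1. The epidermal differentiation complex on chromosome 3 is another cluster of skin genes. Of its 44 genes 30 were in LADs in CT6 replicate 1, 38 in CT6 replicate 2 and 10 in CT30 replicate 1, and 0 in the other 11 libraries. Of the 7 libraries with a chromosome 16 call, 2 had one there, as did 1 of the 7 without.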

How the data were processed

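LMNB1 ChIP-seq libraries from 14 livers were used. The inputs and RNA-seq were not analysed here. The authors removed duplicates with Picard, mapped reads to mm10 with Bowtie (version 2.25.0 in the submitters' processing notes), brought each ChIP and its input to equal depth per chromosome, and called LADs with EDD, with settings averaged over 10 runs per library. The EDD version is not given in the sources used here. The deposited files hold LAD start and end positions in base pairs, with no score, count or signal, so depth is unknown, no counting interval can be given, and precision comes from the 2 mice per group. No deposited LAD ended beyond its chromosome on GRCm38.p6.

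LADs were used as deposited, library by library, whereas the paper mostly analysed the intersect of the replicates of a time point. Gene starts came from GENCODE vM21, and the 5′ end of the gene by strand was its start site. The bin size of a library is the largest number of kb that divides its LAD starts lying on whole kb. Distance is 0 inside a LAD. Groups and replicate numbers follow the labels. Clusters were compared within libraries with exact sign-flip permutation tests and time points with exact permutation tests of an F ratio, with Benjamini-Hochberg adjustment, in Python 3.11.15 with NumPy 2.4.6, checked on simulated data. The tests treat libraries as replicates and members of a cluster as 1 unit, since neighbours share a LAD. The planned correlation over 14 libraries was replaced by one within the 7 libraries with a call.

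Named genes were the keratins of liver and epidermis, the members that are not keratins, the first and last of each run, those in LADs of most and fewest libraries (ties by position), those differing between time points in both mice, and those at LAD borders. The members and lists were chosen with earlier results of these data known. Alternatives were gene-body overlap, LADs of at least 1 Mb, LADs less than 100 kb apart joined, narrower member lists, intersects and unions of the mice of a time point, other flanks, genes of the same chromosomes as background, replicate blocks and leaving out each library. Protein sequences were not analysed here.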

Additional observations from a re-analysis of the deposited data

How the results depend on the processing

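No chromosome 11 or 15 member was in a LAD under any alternative run, which leaves tests on them no room to change. The differences in distance between clusters kept their direction and their side of the threshold. The chromosome 16 excess did not. Its share minus that of chromosome 11, or of chromosome 15, was 7.14 percentage points with LADs of at least 1 Mb. It was 4.76 in the 7 intersects of the mice of a time point and 12.5 in libraries with bins above 12 kb. Each of these values rests on 1 library or intersect, so the exact permutation test cannot decide and no p is given. Against other genes these settings gave 0.0873, -0.881 (a reversal) and 5.40 points, gene-body overlap gave 18.2 (exact permutation, adjusted p = 0.0526), Krtap genes alone 18.4 (adjusted over fewer comparisons, p = 0.0562), and leaving out a library 12.6 to 20.6. Against its flanks, cover differed by 4.76, 7.44 and 8.33 points. By construction the 1 Mb minimum keeps only the CT30 replicate 1 call, and the intersects only that of CT12. All members minus other genes went from -2.45 to -5.54 with LADs of at least 1 Mb and to -4.63 in the intersects. Both were past the threshold, but with most members at 0 in every library this was largely fixed beforehand. It went to 3.08 for Krtap genes alone and 0.214 in libraries with bins of at most 12 kb, both reversals. Leaving out a library gave -3.79 to -1.88. Keratin genes alone gave -8.07, the share of other genes with its sign turned, since no keratin gene was ever in a LAD. A test of that difference was fixed beforehand. CT0 minus NS ran from -6.5 to 5.5 leaving out a library, with reversals to 5.5 without NS replicate 2 and 5 without CT0 replicate 1, and r with coverage from -0.93 to -0.37. Splits by bin size were chosen after seeing the data.

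Replicate numbers name different mice. Deviations of same-numbered mice correlated across genes from -0.109 to 0.457 over 21 pairs of groups, above 0.1 in 6, among them all pairs of NS, CT0 and CT6, and in 6 of 7 groups the mice correlated best with their own number. That is a hint of shared variation from the data, not the design, and the libraries were left unpaired. With replicate number as a block, replicate 1 libraries alone gave chromosome 16 an excess of 19 points over each other cluster, 11.7 over other genes and 17 over its flanks (exact permutation p = 0.5, 0.625 and 0.5). Replicate 2 libraries alone gave 33.9, 25.1 and 40.1 (exact permutation p = 0.0625 in each). Against the other clusters and the flanks, 0.5 and 0.0625 are the smallest p possible in this test. Only 2 replicate 1 and 5 replicate 2 libraries carried the call, so these comparisons cannot decide. Blocking changed no call over the time course.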
